A study of Mus musculus with 4 samples.

Results

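The 9 genes of the MYC, MAX and MXD transcription factor network examined here were Myc, Mycn, Max, Mxd1, Mxd3, Mxd4, Mxi1, Mnt and Mga. Accessible regions were assigned to them when the nearest protein-coding transcription start (GENCODE vM1) belonged to a listed gene, or when the region centre lay within 2.5 kb of a start of a listed gene. This gave 39 of 42613 regions at E9.5 and 39 of 46765 regions at E10.5, 78 of 89378 in all. In each list 13 of the 39 regions lay within 2.5 kb of a start and are called promoter regions, and 26 lay farther away and are called distal. Merging overlapping regions of both lists left 49 separate loci, of which 27 were open in both lists, 12 in the E9.5 list alone and 10 in the E10.5 list alone.

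The regions came from ATAC-seq, in which a transposase inserts sequencing adapters into open chromatin, on wild-type forelimb buds of NMRI mouse embryos at 2 stages. Each of the 2 replicates per stage was the forelimb bud pair of 1 embryo. The earlier samples, titled E9.5 and given as E9.75 in the protocol, kept some neighbouring trunk that the E10.5 samples are not described as having, so stage and trunk tissue cannot be told apart in any comparison below. For the E10.5 samples the tissue label adds hindlimb buds, which neither their source label nor the protocol mentions. The authors combined the replicates into 1 list per stage, so no value has a replicate error, no test between stages was made, and sequencing depth is unknown.

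MYC and its paralogue MYCN are basic helix-loop-helix leucine zipper proteins that bind DNA only as dimers with MAX, mostly at the E-box CACGTG, and promote growth and proliferation. The MXD proteins, MXI1 and MNT also dimerise with MAX, occupy the same E-boxes and recruit SIN3 corepressors, and MGA joins MAX to a variant Polycomb complex. MYCN supports proliferation of limb bud mesenchyme, and distant enhancers spread through gene-poor DNA are known to control both Myc and Mycn in several tissues.

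Sequences from mm9 are shown for promoters with and without the network's own binding motif, and for the distal regions on which the stage comparison turned. The 200 bp upstream of the outermost annotated start were searched on both strands, and matches are in capitals. The motifs were the E-box CACGTG, the related form CACGCG, which on the opposite strand reads as CGCGTG, and the box for SP factors, GGGCGG, which on the opposite strand reads as CCGCCC. No stretch can match more than 1 of these motifs in full, although neighbouring SP boxes can overlap. Across the 22380 protein-coding genes, 5.57% held CACGTG in this window, 8.43% held CACGCG and 38.0% held GGGCGG.

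Myc, chr15:61816746-61816945, plus strand: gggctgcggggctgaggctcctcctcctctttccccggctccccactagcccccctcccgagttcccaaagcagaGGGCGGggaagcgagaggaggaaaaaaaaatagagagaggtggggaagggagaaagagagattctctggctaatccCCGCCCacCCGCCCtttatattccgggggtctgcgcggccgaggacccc

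Mycn, chr12:12948721-12948920, minus strand: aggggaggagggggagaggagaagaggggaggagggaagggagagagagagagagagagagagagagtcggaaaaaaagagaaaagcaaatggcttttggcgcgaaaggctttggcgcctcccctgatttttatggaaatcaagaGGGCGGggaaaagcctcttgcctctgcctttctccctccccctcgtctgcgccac

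Mxd1, chr6:86619154-86619353, minus strand: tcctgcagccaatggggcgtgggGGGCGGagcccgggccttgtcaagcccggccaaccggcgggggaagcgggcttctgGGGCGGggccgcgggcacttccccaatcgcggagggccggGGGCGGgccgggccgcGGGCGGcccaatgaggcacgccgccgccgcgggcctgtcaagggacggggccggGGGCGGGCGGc

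Mnt, chr11:74644222-74644421, plus strand: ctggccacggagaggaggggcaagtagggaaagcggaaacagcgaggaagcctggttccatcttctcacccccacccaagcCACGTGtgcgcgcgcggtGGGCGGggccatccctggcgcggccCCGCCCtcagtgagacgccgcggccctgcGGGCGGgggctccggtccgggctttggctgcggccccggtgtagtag

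Mga, chr2:119722764-119722963, plus strand: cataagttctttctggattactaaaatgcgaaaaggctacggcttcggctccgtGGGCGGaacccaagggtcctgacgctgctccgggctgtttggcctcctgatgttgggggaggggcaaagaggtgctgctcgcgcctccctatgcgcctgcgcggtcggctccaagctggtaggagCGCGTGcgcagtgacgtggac

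Of the 9 genes, Mnt was the one with a CACGTG in this window, and Mga was the one with a CACGCG-type match, printed as CGCGTG. The Myc sequence held 3 SP boxes, that of Mycn held 1, and that of Mxd1 held 6, with a GC content of 81.5%. The presence or absence of these letters says nothing about binding.

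For distal regions, 300 bp around the region centre are given on the plus strand. The centre is the midpoint of the deposited interval and need not be the point of highest accessibility. Capitals mark CACGTG and TGANTCA, which reads the same on both strands. With any base allowed at N, TGANTCA is looser than the AP-1 motif, which has C or G there.

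Mycn, 125 kb upstream, open in both lists and higher at E10.5, chr12:13073715-13074014: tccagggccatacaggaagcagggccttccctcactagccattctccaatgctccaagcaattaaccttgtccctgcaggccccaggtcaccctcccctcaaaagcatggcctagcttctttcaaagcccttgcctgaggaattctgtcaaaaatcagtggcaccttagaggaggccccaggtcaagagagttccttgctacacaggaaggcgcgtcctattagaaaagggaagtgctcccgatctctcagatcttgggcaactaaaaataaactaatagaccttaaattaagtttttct

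Myc, 484 kb downstream, E9.5-specific, chr15:62302364-62302663: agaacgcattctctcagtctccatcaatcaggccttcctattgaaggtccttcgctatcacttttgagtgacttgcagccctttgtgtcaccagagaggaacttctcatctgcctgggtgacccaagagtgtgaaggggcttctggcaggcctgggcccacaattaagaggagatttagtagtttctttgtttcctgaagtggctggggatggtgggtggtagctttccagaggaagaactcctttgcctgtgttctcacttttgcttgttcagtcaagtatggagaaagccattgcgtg

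Myc, 300 kb downstream, E10.5-specific, chr15:62118467-62118766: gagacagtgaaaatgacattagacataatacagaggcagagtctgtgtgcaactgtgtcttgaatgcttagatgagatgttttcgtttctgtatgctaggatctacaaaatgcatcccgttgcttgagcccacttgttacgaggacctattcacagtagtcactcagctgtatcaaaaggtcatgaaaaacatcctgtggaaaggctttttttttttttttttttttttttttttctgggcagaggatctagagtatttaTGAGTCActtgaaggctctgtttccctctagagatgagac

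Myc, 214 kb upstream, open in both lists, chr15:61602407-61602706: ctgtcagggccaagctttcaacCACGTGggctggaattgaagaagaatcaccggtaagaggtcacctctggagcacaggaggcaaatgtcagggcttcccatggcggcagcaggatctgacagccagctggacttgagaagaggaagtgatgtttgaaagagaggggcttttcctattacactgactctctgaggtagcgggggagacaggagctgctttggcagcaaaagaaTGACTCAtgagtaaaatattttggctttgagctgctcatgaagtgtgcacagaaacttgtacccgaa

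The Mycn region and the E9.5-specific Myc region held neither motif. The E10.5-specific Myc region held 1 TGANTCA match, and the upstream Myc region held both a CACGTG and a TGANTCA match, 1 of each.

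The question the lists allow is where chromatin near these genes was open at either stage, and how the distant regions of Myc and Mycn compared with the promoters of the 6 Max partners (Mxd1, Mxd3, Mxd4, Mxi1, Mnt and Mga). The deposited score of a region is 10 times the negative log10 of its best MACS p-value. A score of exactly 3100 was shared by 682 regions at E9.5 and 355 at E10.5, and a further 161 and 95 scored above it, up to 3233.06 and 3230.05. Scores of 3100 or more are called the limit here, since so many regions were tied there. The percentile of a score is its rank within its own list. As the lists differ in length and in their share of distal regions, median percentiles are set beside those of all regions of the same class. Percentiles of single regions are within the whole list unless a class is named. Regions that overlapped the opposite list by 1 bp or more are called shared, and the remainder are called stage-specific. Percentages carry exact 95% intervals that cover counting error only.

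All 9 genes had a promoter region in both lists, against 61.3% of protein-coding genes. Of the 10 promoter regions of the Max partners, 9 were shared at E9.5 (90%, interval 55.5 to 99.7%), against 86.9% of all promoter-proximal regions. At E10.5, 10 of 10 were shared (69.2 to 100%), against 94.7%. Each interval held the share of promoters in general.

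Of the distal regions of Myc and Mycn, 9 of 17 were shared at E9.5 (52.9%, 27.8 to 77.0%), against 59.7% of all distal regions. At E10.5, 9 of 16 were shared (56.2%, 29.9 to 80.2%), against 50.4%. Both intervals held the share of distal regions in general. Among regions at least 100 kb from any start, 8 of 15 distal regions of Myc and Mycn were shared at E9.5 (53.3%), against 57.4% of all regions so far away. At E10.5, 8 of 12 were shared (66.7%), against 34.8%, a share just under the lower bound of the interval (34.9 to 90.1%). The distance cut took the E10.5-specific regions of Myc and Mycn from 7 to 4 and the shared ones from 9 to 8. Neighbouring regions are not independent of each other.

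Over all 39 members, 27 were shared at E9.5 (69.2%), against 70.1% of the whole list, and 29 at E10.5 (74.4%), against 65.0%. Max had 2 of 5 distal regions shared at E9.5, compared with 3 of 6 at E10.5, and the few distal regions of its partners, 4 in each list, were all shared. The plot of shared percentages shows how wide the intervals of these small groups were.

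**Figure D1:**
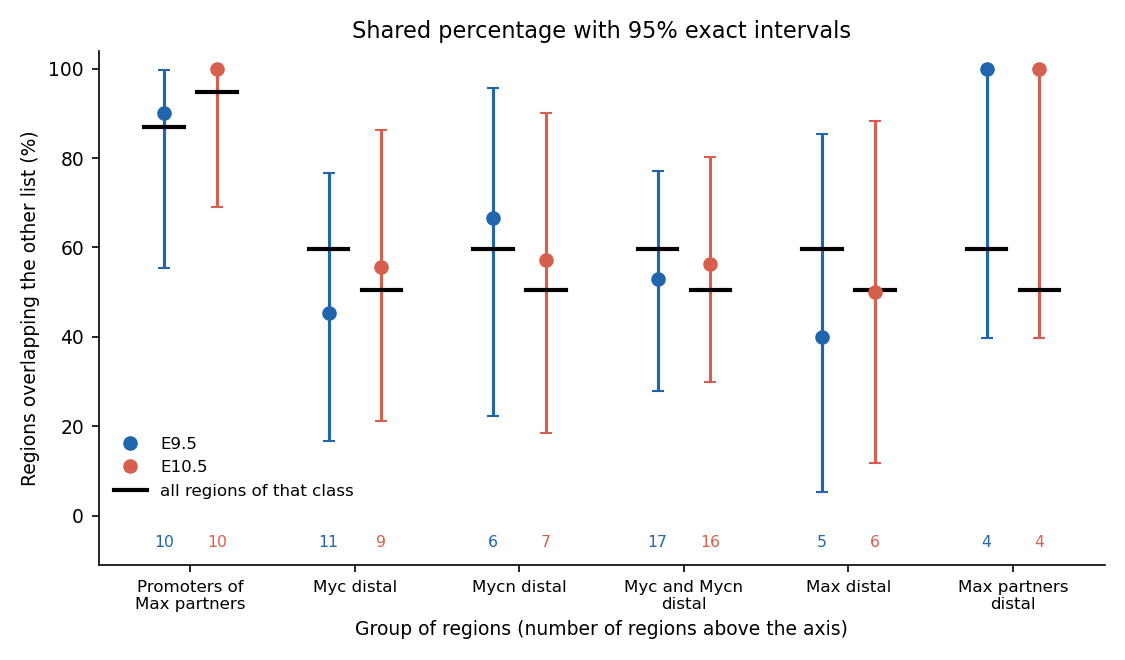
Percentage of regions with an overlap of 1 bp or more in the opposite list (vertical axis) for 6 groups of regions (horizontal axis, with the number of regions), as points with exact 95% intervals, blue for E9.5 and red for E10.5, beside black bars for all regions of the same class. The promoters of the Max partners stood at 90% and 100%, the distal regions of Myc and Mycn at 52.9% and 56.2%, and every group's interval held the black bar of its class.

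Scores separated the classes more widely. The median score of the Max partners' promoter regions was 2094.21 at E9.5 (range 113.28 to 3100) and 1319.80 at E10.5 (85.24 to 3100), above the medians of 899 and 638 over all promoter-proximal regions. The distal regions of Myc and Mycn had a median of 174.94 at E9.5 (106.65 to 904.46) and 250.78 at E10.5 (122.29 to 1467.13), beside 177 and 183 over all distal regions. The ranges of the classes overlapped in both lists. As ranks, the partners' promoters had a median percentile of 93.5 at E9.5 and 90.8 at E10.5, beside 77.8 and 77.1 over all promoter-proximal regions. The distal regions of Myc and Mycn had 35.3 and 51.3, beside 35.9 and 39.0 over all distal regions. Most of the gap in rank was thus that between promoters and distal regions in general. The median distance from the nearest start was 0.45 kb and 0.44 kb for the promoters, and 172 kb and 116 kb for the distal regions, which lay between 50.6 and 509 kb away.

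Among the activating members, Myc itself was open over its promoter at both stages. Its gene (ENSMUSG00000022346) occupies chr15:61816946-61821929 on the plus strand. The promoter region scored 3100, the limit, in both lists and was 5589 bp wide at E9.5, compared with 5414 bp at E10.5. It covered 63.5% and 60.2% of the gene, and its width stood at the 99.5th and 99.8th percentile of promoter-proximal regions. Accessibility here was thus a broad domain running through most of a short gene rather than a narrow peak at the start.

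Mycn (ENSMUSG00000037169, chr12:12942902-12948720, minus strand) had a promoter region of 5247 bp at E9.5, scoring 2005.72, and of 3529 bp at E10.5, scoring 1346.37. The region covered 61.7% of the gene at E9.5 but 37.3% at E10.5. In rank the difference was small, from percentile 93.0 to 91.1. The Mycn promoter at E10.5 was therefore lower in score and narrower, but it held nearly the same place among the regions of its list.

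Max (ENSMUSG00000059436, chr12:78038256-78063235, minus strand), the obligate partner, had 1 promoter region, scoring 2938.33 at E9.5 and 2655.56 at E10.5. Its centre lay 12 bp upstream of the start at E9.5 and 47 bp upstream at E10.5, and the central window held 1 CACGTG in each list.

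Of the MXD repressors, Mxd1 (ENSMUSG00000001156, chr6:86597038-86619153, minus strand), known for its induction as cells differentiate, had a promoter region at the score limit at E9.5 and at 1961.64 at E10.5. A second, weak Mxd1 region centred 1.86 kb upstream scored 113.28 at E9.5 and 146.93 at E10.5, and it was the single promoter pair with the higher score at E10.5. Mxd3 (ENSMUSG00000021485, chr13:55426529-55431119, minus strand), associated with proliferating progenitors, scored 1920.49 and 1239.16. An intronic Mxd3 region 1.45 kb downstream of a start, scoring 205.28, was E9.5-specific and was the only stage-specific region among the 26 promoter regions. Mxd4 (ENSMUSG00000037235, chr5:34516536-34530369, minus strand) scored 2931.22 and 2417.31. All 3 Mxd genes had promoter regions and no distal regions. Most protein-coding genes lacked distal regions too, since 41.0% had 1 or more at E9.5 and 41.5% at E10.5.

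Mxi1 (ENSMUSG00000025025, chr19:53384996-53450300, plus strand), a repressor of the same type, was open at separate starts within its gene. The region over its outermost start scored 3100 at E9.5 and 2853.38 at E10.5, and at 5329 and 5413 bp it was nearly as wide as that of Myc. The region at an internal start scored 2267.93 and 1400.43, and its central window held 6 CACGCG matches in each list.

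Mnt (ENSMUSG00000000282, chr11:74644422-74659227, plus strand), the broadly expressed antagonist of MYC, was at the limit of 3100 at both stages, as Myc was. The Mnt region extended over 4321 bp at E9.5, compared with 3920 bp at E10.5, and held 1 CACGTG in its central window in each list. A region at an internal Mnt start scored 1672.07 and 1034.46.

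Mga (ENSMUSG00000033943, chr2:119722964-119795317, plus strand), the member with a T-box domain beside its zipper, had a single promoter region at E9.5, scoring 1551.38 over 2230 bp. At E10.5 this stretch was divided into a region of 1306 bp scoring 1182.66 and a region of 810 bp, centred 1.14 kb downstream, scoring 85.24. The second was the lowest score of all 78 members.

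**Figure D2:**
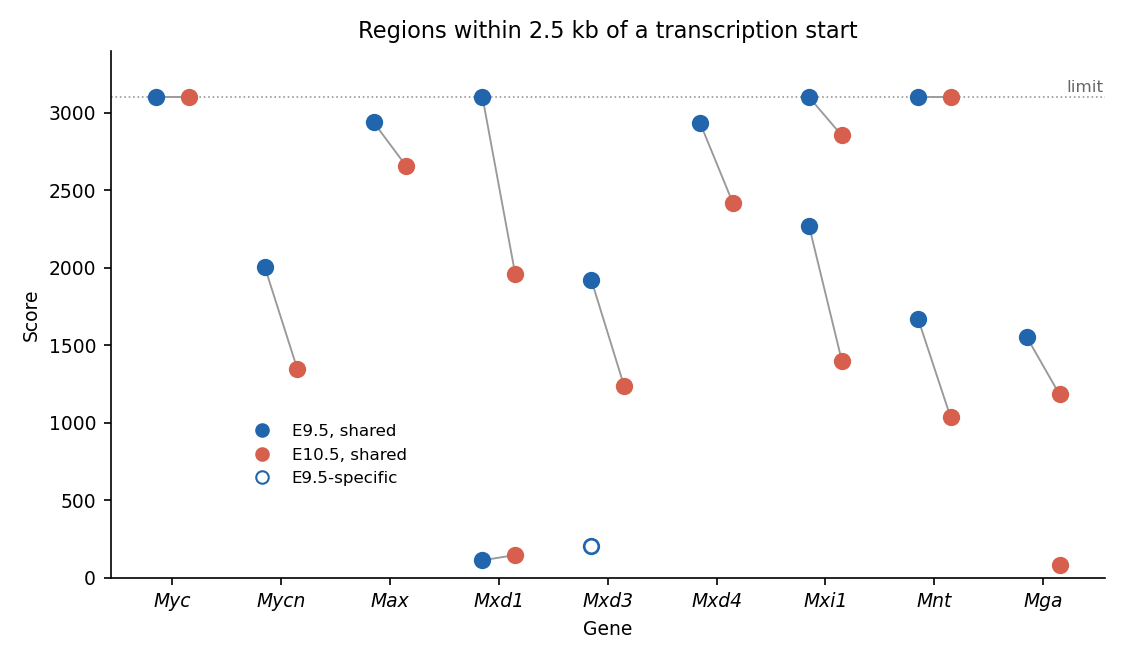
Score (vertical axis, with a dotted line at 3100) of each region within 2.5 kb of a start of the 9 genes (horizontal axis), blue for E9.5 and red for E10.5, with lines joining mutually best-overlapping regions and an open circle for the stage-specific one. Myc and Mnt stayed at the limit, 9 of 12 pairs had the lower score at E10.5, and only the weak Mxd1 pair had the higher one.

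Of the 12 promoter pairs, taking for each shared E9.5 region its best E10.5 partner, 9 had the lower score at E10.5, 1 the higher, and 2 were equal at the limit. Among all 14190 shared promoter-proximal pairs 77.9% had the lower score at E10.5, so the direction was that of promoters at large. By percentile 6 of the 12 were lower and 6 higher, with 58.4% lower over all such pairs. The E10.5 region was narrower in 10 of 12, and in 74.9% of all pairs. At the limit stood 4 member regions at E9.5 (Myc, Mxd1, Mxi1 and Mnt) and 2 at E10.5 (Myc and Mnt). Around the 2.5 kb distance, the Mxd1 region at 1.86 kb and the Mxi1 region at 1.78 kb were the outermost just inside it. An intronic Mxi1 region 3.62 kb upstream of a start, scoring 285.35 and 175.49, was the nearest outside.

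Myc had 11 distal regions at E9.5, a number reached by 272 of 22380 protein-coding genes (1.22%), and 9 at E10.5, reached by 800 genes (3.57%). Of these, 5 were shared in each list, 6 were E9.5-specific and 4 were E10.5-specific. They lay on both sides of the gene, between 432 kb upstream and 509 kb downstream, in an interval without other protein-coding genes. This count rests on leaving out non-coding genes: with starts of all gene types, Myc was the nearest gene for 1 distal region at E9.5 and for 2 at E10.5. Downstream, several fell within Pvt1, a long non-coding RNA gene that follows Myc.

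Of the 5 shared distal loci of Myc, 1 lay upstream and 4 downstream. The region 214 kb upstream, outside any annotated gene, scored 135.02 at E9.5, with 232.74 for its E10.5 partner. The region 50.6 kb downstream, at an exon of Pvt1, scored 376.28 and 406.63. It differed from the other distal regions of Myc in its GC content of 68.8%, beside a median of 49.2% over the 11 regions at E9.5, and it lay over the annotated start of Pvt1, a non-coding RNA promoter by position.

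The region 105 kb downstream, in an intron of Pvt1, scored 178.95 and 198.17. The intronic region 341 kb downstream scored 136.90 and 122.29, and it was the one Myc pair with the lower score at E10.5. The farthest region, 509 kb downstream and beyond Pvt1, scored 174.94 and 268.82. Within the whole list, none of the shared distal regions of Myc exceeded percentile 66.1. Ranked against distal regions only, the one over the Pvt1 start was higher, at percentile 80.7 in the E9.5 list and 81.0 in the E10.5 list. By that ranking the remaining shared ones spanned percentiles 32.2 to 50.6 in the earlier list and 24.4 to 67.8 in the later one.

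The E9.5-specific regions included the strongest distal region of Myc in either list. This region, 484 kb downstream, scored 904.46, at percentile 77.9 of the E9.5 list and percentile 95.2 of its distal regions, with no overlapping E10.5 region. Another, 432 kb upstream, scored 477.73 at percentile 65.3. The remaining 4 were weak, at 107.48 for the region 374 kb upstream and at 150.84, 141.66 and 168.04 for intronic Pvt1 regions 172, 229 and 234 kb downstream.

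The E10.5-specific regions of Myc included a pair of intronic Pvt1 regions, scoring 464.20 at 300 kb downstream and 395.14 at 62.2 kb downstream. Their percentiles were 69.5 and 65.4 in the whole list, and 84.2 and 80.3 among its distal regions. The other two were weak, at 135.09 for the region 87.9 kb upstream and 161.17 for the region 505 kb downstream. The latter lay next to the shared region at 509 kb. Specific regions of the 2 stages were therefore interleaved along the interval rather than kept to separate stretches, and what part the trunk tissue had in the E9.5-specific ones was not tested.

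Mycn had 6 distal regions at E9.5 and 7 at E10.5, numbers reached by 5.14% and 5.54% of protein-coding genes. All of these lay upstream and outside annotated genes, between 53.5 and 151 kb from the nearest start. The counts and their side depend on Rpl36-ps3, a pseudogene by its name that the annotation types as protein-coding and that lies downstream of Mycn. Without its starts, Mycn had 17 distal regions at E9.5, of which 11 were downstream, and 14 at E10.5, of which 7 were. With starts of all gene types it had 3 and 4. Of the regions under the rule used here, 4 were shared in each list, 2 were E9.5-specific and 3 were E10.5-specific.

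The widest difference in percentile among the shared members was at the Mycn region 125 kb upstream. Its score was 239.78 at E9.5, at percentile 47.3, and 1467.13 at E10.5, at percentile 92.4, and its width was 1168 and 1582 bp. The difference of 45.1 percentile points was matched or exceeded by 976 of the 15693 shared distal pairs (6.22%). At E10.5 this distal region scored above the Mycn promoter, at 1346.37, whereas at E9.5 it scored far below it.

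The neighbours of this region did not share its direction throughout. The region 144 kb upstream scored 495.56 at E9.5 and 224.31 at E10.5, and the region 107 kb upstream 467.03 and 269.57. A further region 108 kb upstream, next to the last, scored 428.92 and 455.69. Between 107 and 144 kb upstream, the shared regions of Mycn therefore differed between the stages in both directions.

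Stage-specific Mycn regions were weaker at E9.5, at 158.85 for the region 53.5 kb upstream, whose central window held 1 CACGTG, and 106.65 for the region 151 kb upstream. At E10.5 they scored 358.08 at 102 kb, 173.71 at 84.4 kb and 146.82 at 136 kb upstream. The first of these was the widest distal region of the gene, at 1690 bp.

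**Figure D3:**
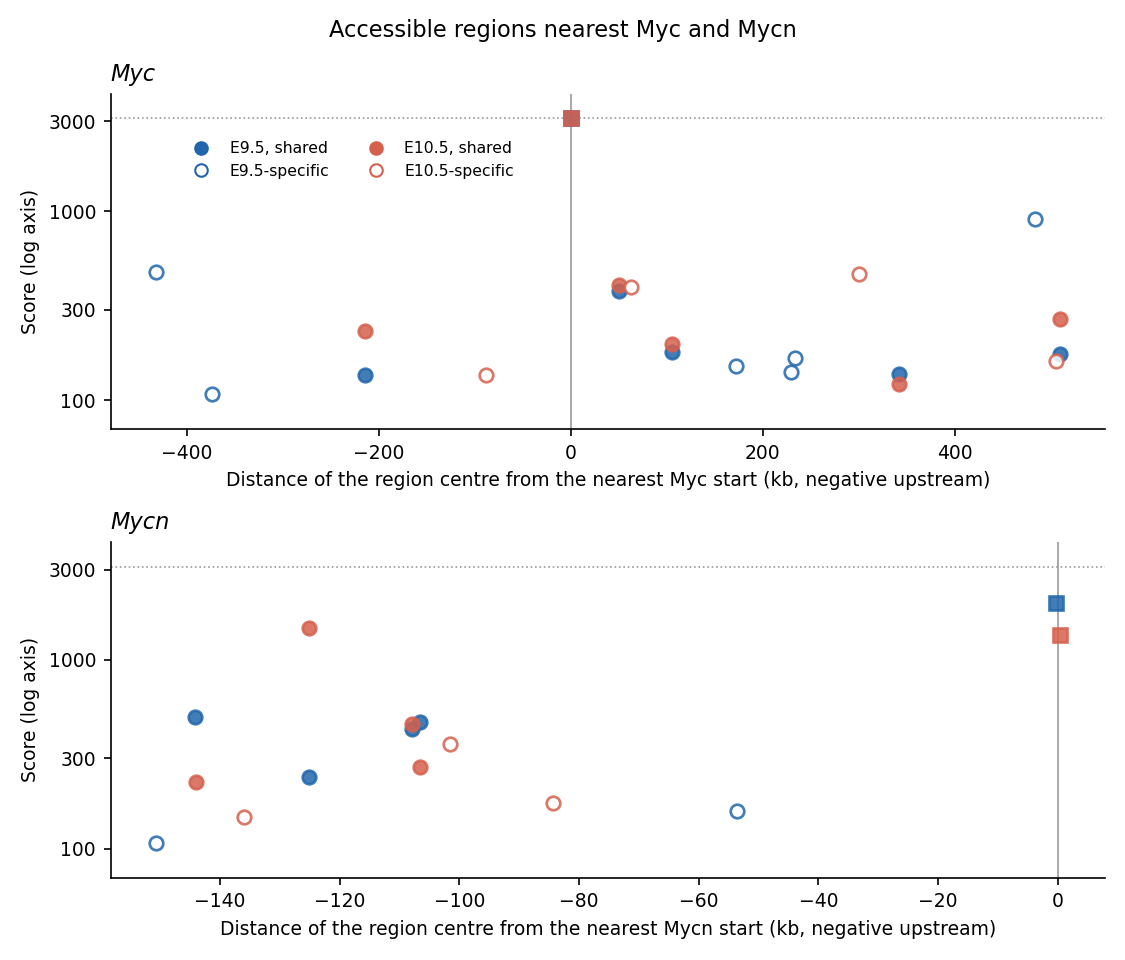
Score (vertical log axis, with a dotted line at 3100) of each region nearest Myc (upper panel) and Mycn (lower panel) against the distance of its centre from the nearest start in kb, negative upstream, with squares for promoter regions, filled symbols for shared and open symbols for stage-specific regions, blue for E9.5 and red for E10.5. Distal regions of Myc lay on both sides up to 509 kb away, those of Mycn upstream only under the rule used (both sides without the starts of Rpl36-ps3), and the Mycn region 125 kb upstream went from 239.78 to 1467.13.

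Over the 9 shared distal pairs of Myc and Mycn, 3 had the lower score at E10.5 and 6 the higher, with a median change of +6.01 percentile points. Over all 15693 shared distal pairs 48.0% had the lower score, with a median change of +4.04 points. The direction for Myc and Mycn was near that of distal regions at large.

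Max had distal regions as well, all upstream, of which 5 were in the E9.5 list and 6 in the E10.5 list. As many were reached by 7.13% and 6.91% of protein-coding genes. With starts of all gene types Max had 2 and 4. The shared region 98.1 kb upstream scored 226.67 at E9.5 and 409.40 at E10.5. A 1576 bp region 38.4 kb upstream, scoring 248.28 at E9.5, overlapped 2 separate regions at E10.5, scoring 165.79 and 126.52. Stage-specific Max regions scored between 109.12 and 235.90 at E9.5, where there were 3, and between 133.85 and 295.74 at E10.5, where there were also 3. Within the whole list, no shared or specific distal region of Max passed percentile 66.3. Among distal regions alone, the highest stood at percentile 66.6 at E9.5 (38.4 kb upstream) and 81.1 at E10.5 (98.1 kb upstream).

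The distal regions of the Max partners were 4 shared pairs. A region 24.3 kb upstream of Mga scored 842.55 at E9.5 and 612.02 at E10.5, with nearly equal percentiles of 76.5 and 76.2. With a GC content of 70.1% and 1 CACGTG in its central window at E9.5 and 2 at E10.5, it had the highest GC content of the distal members, followed by the Myc region at the Pvt1 start. The region 10.7 kb downstream of an Mnt start scored 255.13 and 103.98, and its percentile dropped by 39.4 points, the largest decrease among the shared members. A decrease at least as large was found in 658 of the 15693 shared distal pairs (4.19%). The Mxi1 region 62.3 kb upstream scored 111.35 and 149.63.

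**Figure D4:**
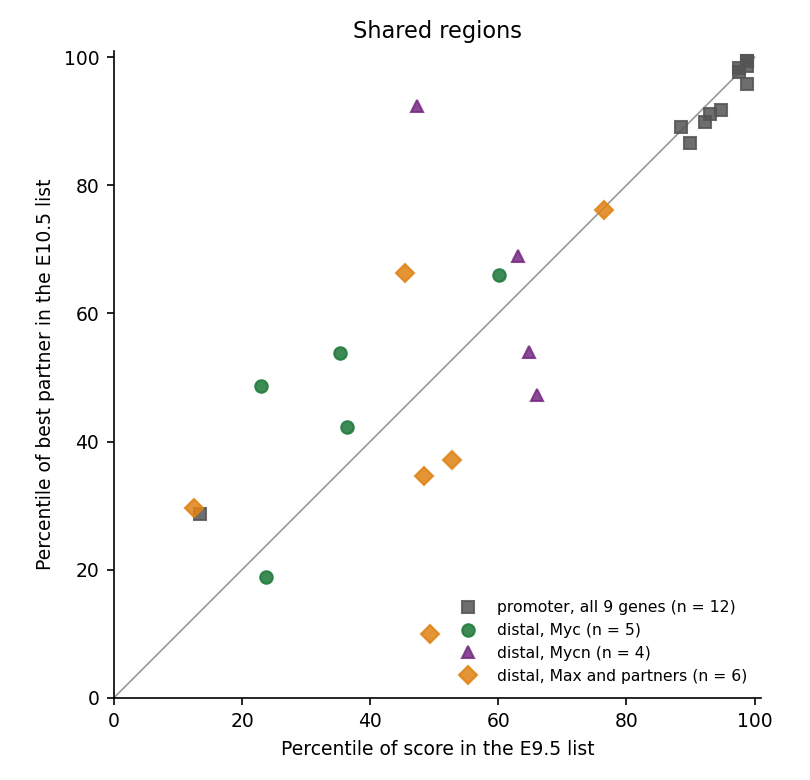
Percentile of the score of each shared E9.5 region of the 9 genes within the E9.5 list (horizontal axis) and of its best E10.5 partner within the E10.5 list (vertical axis), with the grey line marking equal percentiles. Of the 12 promoter pairs all but the weak Mxd1 pair sit at the upper right, distal pairs spread below percentile 80 at E9.5, and 1 Mycn pair sits far above the line at 47.3 and 92.4.

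Median base composition differed between promoters and distal regions, while the single windows overlapped. In the windows reaching 150 bp to either side of the centre, the median GC content of the Max partners' promoters was 61.5% in the E9.5 list and 65.3% in the E10.5 list, beside 63.8% in both lists over all promoter-proximal regions. For the distal regions of Myc and Mycn it was 50.8% and 50%, beside 50.8% and 47.2% over all distal regions. At E9.5 the windows ranged from 44.2 to 77.1% for these promoters and from 42.5 to 68.8% for these distal regions. At E10.5 they ranged from 44.2 to 75.4% and from 36.2 to 66.1%. The ratio of observed to expected CpG dinucleotides was 0.920 and 0.793 for the promoters, beside 0.746 and 0.761 over all promoter-proximal regions. It was 0.220 and 0.262 for the distal regions, beside 0.259 and 0.246. The median CpG ratio of the partners' promoters was thus above that of promoters in general. The single windows ranged widely, from 0.095 to 1.33 at E9.5 and from 0.137 to 1.37 at E10.5.

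In the same windows CACGTG occurred in 3 of 13 promoter regions in each list, against 6.99% of all promoter-proximal windows in the E9.5 list and 7.82% in the E10.5 list. The interval around 3 of 13 (5.04 to 53.8%) held both of these shares. The promoters were those of Max, Mxd3 and Mnt at E9.5, and of Max, Mnt and Mga at E10.5, for Mga in the weak region scoring 85.24. Among the distal regions of Myc and Mycn, CACGTG occurred in 2 of 17 and 1 of 16, against 5.24% and 5.08%. The AP-1-like pattern TGANTCA, with any base at N, occurred in 2 of 17 distal windows of Myc and Mycn at E9.5 (11.8%, 1.46 to 36.4%), against 8.85%. At E10.5 it occurred in 6 of 16 (37.5%, 15.2 to 64.6%), against 9.16%. Of the 7 E10.5-specific regions of Myc and Mycn, 4 held the pattern (interval 18.4 to 90.1%), against 10.04% of all E10.5-specific distal regions. Of the 8 E9.5-specific ones, 0 did (0 to 36.9%), against 9.70%. This division by status was made after the counts had been seen. Of the 4 E10.5-specific matches, the 2 at Mycn read TGATTCA, and the 2 at Myc read TGACTCA and TGAGTCA. The stricter AP-1 form, with C or G at N, was not counted over all regions. The homeodomain core TAATTA occurred in 0 of 17 and 1 of 16, against 7.17% and 11.98%. In the 13 promoter windows of each list, CACGCG occurred in 3 (5.04 to 53.8%), against 16.6% and 17.2% of all promoter-proximal windows. GGGCGG occurred in 6 of 13 at E9.5 (19.2 to 74.9%) and 5 of 13 at E10.5 (13.9 to 68.4%), against 55.4% and 56.9%. These intervals held the shares of promoters in general. These counts are descriptions of short windows, and 5 motifs were counted.

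The gene desert of Myc, taken as the whole interval between its flanking protein-coding genes A1bg and Gsdmc (chr15:60752826-63607525, 2.85 Mb), held 31 distal regions at E9.5 and 32 at E10.5, of which 17 were shared in each list. The density was 10.9 and 11.2 per Mb, beside 9.90 and 11.8 over the genome. The density was thus near that of the genome as a whole. Beyond the member regions it held strong ones that lie nearer to Gsdmc by distance. The region 1066 kb downstream of Myc scored 1425.09 at E9.5 but 576.85 at E10.5. The region 1207 kb downstream scored 244.50 and 1352.33, and that at 1353 kb scored 210.19 and 1195.95. An E10.5-specific region next to the second, at 1203 kb, scored 877.26. In percentile the 3 shared ones stood at 86.9 and 74.9, at 48.0 and 91.2, and at 42.9 and 89.2, so the highest of them at E9.5 was the lowest at E10.5.

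The corresponding interval of Mycn, from Rpl36-ps3 to Ddx1 (chr12:12919176-13226113, 0.307 Mb), held 15 and 14 distal regions, 8 of them shared in each list. Its density was 48.9 and 45.6 per Mb, above that of the genome, and the regions lay entirely upstream of Mycn. The region 243 kb upstream, nearer to the Ddx1 start, scored 346.71 at E9.5 but 1823.04 at E10.5, which was also the direction of the member region at 125 kb. Rpl36-ps3 ends the interval on the downstream side. Without it the interval reached Fam49a (0.843 Mb) and held 29 and 28 regions, of which 14 in each list were downstream.

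By the numbers of shared and specific distal regions in both lists, the gene most like Myc was Arglu1, with the same 4 numbers, followed by Apoo-ps and Nr5a2, which differed by 1 region. Mycn had the same numbers as 8 genes, of which the first by name were Cxadr, Dclk2 and Gm6878. Likeness here is over 4 counts only.

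Of 38 further genes of the wider network, 38 had a promoter region at both stages, against the 61.3% of protein-coding genes. They comprised 4 other MYC and MLX family genes, 5 SIN3 and NCOR corepressor genes, 6 genes of the Polycomb complex that holds MGA, 7 MYC cofactors, 5 genes of MYC turnover and 11 well-known MYC targets. The best promoter score was 3100 or more for 8 of the 38 at E9.5, with Eif4e above it at 3177.69, and for 1, Gsk3b, whose kinase marks MYC for degradation, at E10.5. Mycl, the remaining MYC paralogue, scored 3100 at E9.5 but 1854.67 at E10.5. The 38 genes had 29 distal regions at E9.5 and 19 at E10.5, with a median of 0 per gene, beside the 11 and 9 of Myc alone. Of all protein-coding genes 41.0% and 41.5% had 1 or more distal regions, so their median was 0 as well. Of the 29, 18 were E9.5-specific (62.1%), against 40.3% of all distal regions, and of the 19, 8 were E10.5-specific (42.1%), against 49.6%. The target genes had 18 of the 29 and 9 of the 19. They also had 11 of the 18 E9.5-specific regions, with 3 at Ncl, 3 at Eif4e and 2 at Odc1, and 2 of the 8 E10.5-specific ones. A few genes thus carried much of the E9.5-specific share, which is given without an interval.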

How the data were processed

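The deposited files held 1 list of accessible regions per stage, each made by the authors from 2 replicates. The authors mapped reads to mm9 with Bowtie and called regions with MACS without a control library (versions 1.1.0 and 1.4 in the submitters' processing notes), then combined replicates with MSPC. The score that the authors deposited for each region is the smallest MACS p-value of the overlapping replicate regions on a negative log10 scale, times 10, so it grows with depth, which is unknown here. All regions were kept. Scores of 3100 or more, up to 3233.06, were counted as at the limit and kept their values. Lists of single replicates were not used here, so all comparisons are descriptive. Regions were annotated by their centre with GENCODE vM1 on NCBIM37, the assembly of mm9 (22380 protein-coding genes, 70064 starts, 0 regions past a chromosome end), in Python 3.11.15 with SciPy 1.17.1 and pysam 0.24.0. Base composition and motifs were taken from 301 bp around each centre.

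The 9 genes, the wider gene list, the motifs and the rules were chosen with earlier results of these data known. The text names every promoter region and, in each list, the 5 highest-scoring, the 3 highest-scoring stage-specific and the farthest distal region of Myc and of Mycn, the 3 highest-scoring distal regions of the other genes, and the 3 genes most like Myc and Mycn by their counts of distal regions. Remaining distal regions, and regions of the intervals around Myc and Mycn that lie nearer to another gene, were named after their values were seen. The code for nearest genes, distances, overlaps and percentiles was tested on simulated data. Alternatives changed the overlap, the score filter, the distance rule, the promoter distance and the starts used.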

Additional observations from a re-analysis of the deposited data

How the results depend on the processing

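Of 100 recomputed values, 82 stayed within the interval of the value reported, or within 1.5 times of it for a count. Those intervals are wide, and several settings left the regions behind a value unchanged, so this was a weak check. Limiting each list to its higher-scoring 50% left 19 and 22 member regions (39 and 39 before), 3 E9.5-specific distal regions of Myc and Mycn (8 before), a median score of 472 for their E9.5 distal regions, and a shared percentage of 100% for the E9.5 promoters of the Max partners. These follow from the removal of weak regions. With starts of all gene types, 22 member regions were found at E9.5 and 26 at E10.5, with 4 and 6 distal regions of Myc and Mycn (17 and 16 before), 1 E9.5-specific and 3 E10.5-specific distal regions of Myc and Mycn and a median E9.5 distance of 107 kb, since non-coding genes such as Pvt1 then take the nearest start. A promoter distance of 1 kb also gave 100% for the E9.5 partner promoters. Among regions at least 100 kb away, 4 were E10.5-specific. Taking whole intervals between flanking genes gave median distances of 403 and 522 kb and 21 specific distal regions in each list.

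A pair of settings was chosen after seeing the data. Comparing the upper 50% of one list by score with the full opposite list gave 100% for the E9.5 partner promoters. Dropping the starts of Rpl36-ps3 gave 28 and 23 distal regions of Myc and Mycn, of which 17 and 14 were nearest Mycn (6 and 7 before), with 16 E9.5-specific and 11 E10.5-specific distal regions of Myc and Mycn. The shared percentage of these regions ranged from 42.9% to 75.0% at E9.5 and from 37.5% to 66.7% at E10.5 over all settings.

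No paired analysis was possible because the replicates of a stage had been combined, without separate values, and leaving out each replicate was not run for the same reason. The groups held 4 to 17 regions, and their exact intervals are wide.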
